A study of Mus musculus with 33 samples.

Results

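The mammalian Hox genes were followed in mouse tail-tip fibroblasts, in osteoblasts induced from such fibroblasts and in osteoblasts from the skull vault. Members were taken by symbol: every gene of the deposited count table named Hox, followed by a cluster letter from a to d and a number. This gave 36 of the 17982 genes in the table, with 11 in cluster A (chromosome 6), 9 in cluster B (chromosome 11), 9 in cluster C (chromosome 15) and 7 in cluster D (chromosome 2). RefSeq lists 39 mouse Hox genes in the 4 clusters, and Hoxb1, Hoxd1 and Hoxd12 have no row in the count table.

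Hox genes encode homeodomain transcription factors that specify position along the head-to-tail axis of the embryo. Genes that share a number in different clusters are paralogs, and their order on the chromosome follows the order of their expression domains: low numbers act in the hindbrain and neck, high numbers in the lumbar, sacral and tail regions, the distal limb and the genital tract. Connective tissue cells of the adult keep a Hox pattern that reflects their site of origin, and the bones of the skull vault arise from cranial neural crest and head mesoderm, in front of most Hox expression domains.

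RNA was sequenced in 3 groups of 3 libraries that are in the count table. The fibroblasts were cultured from tail tips of mice with the Col2.3GFP reporter, in which a fragment of a type I collagen promoter active in osteoblasts drives green fluorescent protein (GFP). Induced osteoblasts (iOB) were these cells after a lentivirus had delivered a transcription factor gene that the labels do not name; the virus stayed on for 24 hours, the split was on day 3, and osteogenic medium was used from day 5 on. Calvarial-derived osteoblasts (calvarial-OB) were grown from calvarial progenitor cells, and since their titles place them in a dataset of their own, cell type and dataset cannot be told apart. Reporter-positive cells sorted out of iOB (iOB GFP+) enter only through the authors' deposited table of their comparison with fibroblasts. Age, sex and strain are not given, no group received virus or medium alone, and the labels do not say whether replicates are separate animals or cultures, so p-values measure only the spread between these libraries.

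The libraries held a total of 5646299 to 15023771 counts, and correlations of log expression were 0.969 to 0.994 within groups and 0.822 to 0.908 between them. The 12 osteoblast markers were checked first: 11 were higher and 1 lower in both iOB and calvarial-OB than in fibroblasts, where their summed level was 2350 to 2830 CPM (read counts scaled to a common library size), against 4740 to 5340 in iOB and 4970 to 5840 in calvarial-OB. The marker that was lower is Spp1 (osteopontin), which made up most of the fibroblast sum; the other 11 summed to 130 to 149 CPM in fibroblasts, 4140 to 4790 in iOB and 4380 to 5410 in calvarial-OB. The 13 measured macrophage markers were also higher in both, at a summed 20.2 to 33.0 CPM in fibroblasts, 962 to 1620 in iOB and 2260 to 4420 in calvarial-OB, and each of the 13 had counts in every group. Adipocyte markers summed to 131 to 144 CPM in fibroblasts, with Adipoq and Cfd at 0, 285 to 340 in iOB and 1100 to 1800 in calvarial-OB. The part of these other cells in the Hox values below was not tested, and in bulk RNA a smaller number of Hox-expressing cells and less Hox RNA per cell cannot be told apart.

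Fibroblasts carried Hox transcripts mainly from the 5' ends of the clusters, iOB kept most of that level, and calvarial-OB held little of it. The summed level of the 36 genes was 350 ± 16.1 CPM (SD, n = 3) in fibroblasts, 249 ± 4.36 in iOB and 16.4 ± 3.68 in calvarial-OB, on library sizes scaled by the trimmed mean of M-values (TMM). The ranges did not overlap: 332 to 363 CPM in fibroblasts, 246 to 254 in iOB and 13 to 20.3 in calvarial-OB. Fibroblasts had counts for each of the 36 genes over their libraries, and so had iOB, while 15 members had 0 counts in calvarial-OB, 7 had 1 to 3 and 14 had more.

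The clusters differed in this respect. Cluster B, which held 56.1 ± 2.52% of the Hox counts of fibroblasts, summed to 196 ± 7.94 CPM in fibroblasts, 122 ± 4.04 in iOB and 4.66 ± 1.54 in calvarial-OB (SD, n = 3). Cluster A summed to 67.3 ± 5.00, 58.2 ± 3.93 and 5.07 ± 0.945 CPM in the same order. Cluster C went from 84.1 ± 10.1 and 64.6 ± 2.03 CPM to 0.521 ± 0.137, which is 17 counts in the 3 calvarial-OB libraries together. Cluster D had the opposite order, with 2.43 ± 0.491 CPM in fibroblasts, 3.65 ± 0.5 in iOB and 6.15 ± 1.85 in calvarial-OB, and its 3 ranges did not overlap. Sums weigh long and highly transcribed genes most, and no gene lengths were used, so levels are compared between groups and not between genes.

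**Figure D1:**
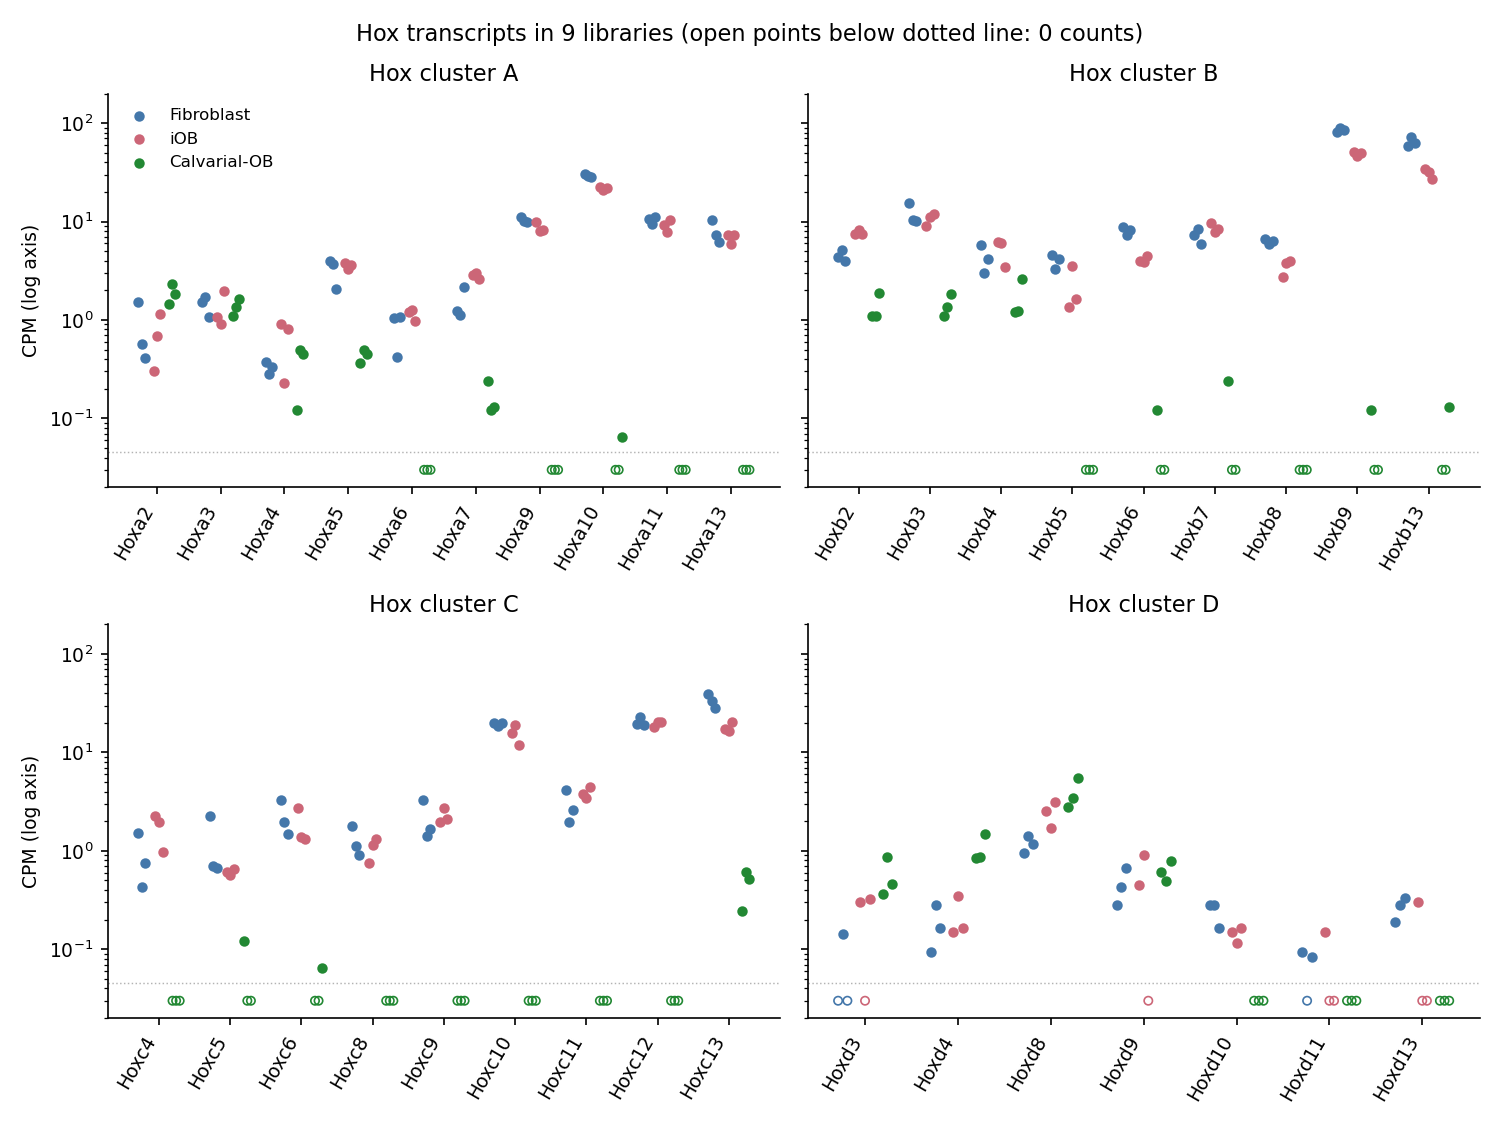
Level of Hox genes in CPM (log axis) in the 9 libraries, by cluster, in order of paralog number; each point is 1 library and open points under the dotted line have 0 counts. In clusters A and B the calvarial-OB points drop towards 0 counts from the middle of the cluster onwards, and in cluster C they lie at or near 0 counts throughout. Cluster D genes 3, 4 and 8 have their highest means in calvarial-OB, where Hoxd8 overlaps with iOB.

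By paralog number, the make-up of the Hox counts shifted towards the 3' ends of the clusters from fibroblasts to iOB and further to calvarial-OB. Paralogs 9 to 13, the genes of the lumbar to tail regions, made up 82.1 ± 2.03% of the Hox counts of fibroblasts (SD, n = 3), 75.2 ± 0.608% of those of iOB and 7.26 ± 0.297% of those of calvarial-OB. Paralogs 1 to 4, the genes of the hindbrain and neck, made up 7.30 ± 1.23%, 12 ± 0.557% and 64.3 ± 2.97%, and paralogs 5 to 8 made up 10.6 ± 0.801%, 12.8 ± 0.173% and 28.5 ± 2.66%. Each of these 3 shares separated the 3 groups without overlap. In calvarial-OB, Hoxd8 alone held 135 of the 159 counts of paralogs 5 to 8. The level of paralogs 1 to 4 did not rise with their share in calvarial-OB: it was 25.6 ± 5.29 CPM in fibroblasts (22.0 to 31.7), 29.9 ± 0.902 in iOB (29.0 to 30.8), within the fibroblast range, and 10.5 ± 2.31 in calvarial-OB (8.11 to 12.7), below it. Paralog group 13 alone took 30.3 ± 1.25% of the Hox counts in fibroblasts and 22.6 ± 0.586% in iOB.

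**Figure D2:**
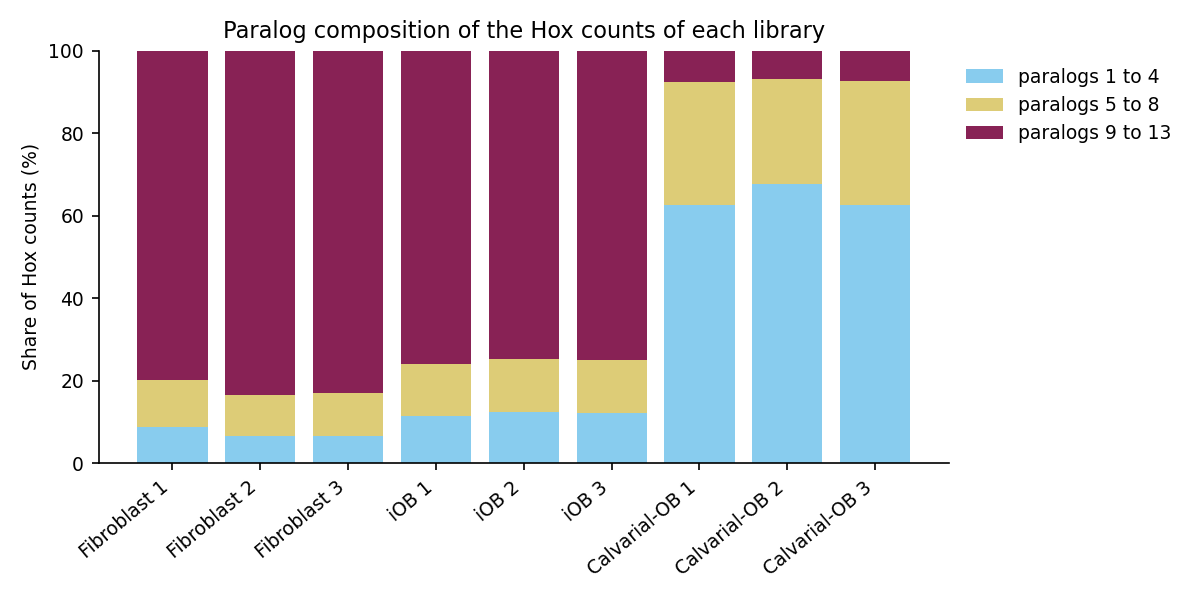
Share of the Hox counts of each library (percent) that fell on paralogs 1 to 4, 5 to 8 and 9 to 13. Paralogs 9 to 13 take most of the bar in the 3 fibroblast and 3 iOB libraries, and paralogs 1 to 4 take most of it in the 3 calvarial-OB libraries.

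The first comparison asked how far skull osteoblasts differ in Hox expression from tail fibroblasts. With edgeR's quasi-likelihood test (adjusted p below 0.05, Benjamini-Hochberg over 13438 genes), 23 of the 36 members were lower in calvarial-OB, 1 was higher, 3 were not called and 9 had too few counts to be tested. Over all tested genes 55.8% were called, 27.4% lower and 28.4% higher. Of all 36 members, with the 9 untested ones counted as not called, 63.9% were lower, above that background, and 2.78% higher, below it. Over all 36 members, fitted without the filter, the median log2 fold change was -5.86, against 0.06 over the 17982 genes. With members at 0 counts set at their bound and those at 1 to 3 counts at their ratio, the median over 35 members was -3.75 (Hoxd11, with at most 3 counts in both groups, left out). Members tested mostly passed the filter through the groups in which they are high, so the libraries themselves are given next: the calvarial-OB libraries lay below every fibroblast library for 27 of the 36 members (75.0%) and above for 3 (8.33%), where 30.3% of all tested genes lay below, 30.2% above and 60.5% in either direction.

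The posterior genes at the 5' ends gave the widest gaps. Hoxb9, which shapes the ribs, had 867, 635 and 1019 counts in fibroblasts, 339, 407 and 303 in iOB, and 1, 0 and 0 in calvarial-OB. Hoxb13, a gene that limits tail length and acts in the prostate, had 623, 507 and 755 counts in fibroblasts, 227, 280 and 166 in iOB, and 0, 0 and 2 in calvarial-OB. Both are therefore near or at the limit of detection in every calvarial-OB library and far above it in every other. On TMM-scaled sizes the ratio of fibroblasts to calvarial-OB was 2690 for Hoxb9 (95% exact interval 483 to 106000, counting error only) and 1010 for Hoxb13 (279 to 8330), and that of iOB to calvarial-OB was 1550 (278 to 61500) and 499 (138 to 4130). These ratios rest on 1 and 2 counts: leaving out calvarial-OB replicate 1 turned those of Hoxb9 into bounds of at least 665-fold in fibroblasts and 383-fold in iOB, and leaving out replicate 3 turned those of Hoxb13 into bounds of at least 347-fold and 172-fold.

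Cluster C showed the same order at its 5' end. Hoxc12 had 208, 160 and 229 counts in fibroblasts, 119, 176 and 126 in iOB and 0 in each calvarial-OB library, so it was at least 213-fold higher in fibroblasts and at least 208-fold higher in iOB (bounds against 3 counts over the group). Hoxc10, a lumbar patterning gene, was at 19.7, 18.6 and 20.1 CPM in fibroblasts and 15.7, 18.8 and 11.8 in iOB with 0 counts in calvarial-OB, at least 207-fold and 168-fold higher. Hoxc13, which controls hair and nail keratin genes, was the only member of clusters A to C above paralog 7 that kept counts in every calvarial-OB library, with 2, 5 and 8 there against 421, 233 and 339 in fibroblasts and 115, 145 and 125 in iOB. Its log2 fold change in calvarial-OB against fibroblasts was -6.12 ± 0.26 (SE; edgeR adjusted p = 1.4e-08). Hoxc9 and Hoxc11 had 0 calvarial-OB counts and were at least 23.2-fold and 31.7-fold higher in fibroblasts, at 3.30, 1.42 and 1.66 CPM and 4.14, 1.98 and 2.57 CPM.

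In cluster A the genes of the limb and reproductive tract had the same order. Hoxa10 was at 30.3, 28.9 and 28.4 CPM in fibroblasts and 22.7, 20.9 and 21.8 in iOB, with a single count in calvarial-OB, a ratio of 928 (95% exact interval 166 to 36700) that became a bound of at least 160 without calvarial-OB replicate 3. Hoxa9, which also acts in blood progenitors, was at 11, 10.1 and 9.87 CPM in fibroblasts and 9.98, 8.03 and 8.18 in iOB. Hoxa11, the forearm and uterus gene, was at 10.7, 9.49 and 11.1 CPM in fibroblasts and 9.22, 7.91 and 10.5 in iOB. Neither had a count in calvarial-OB, and the bounds were at least 109-fold for Hoxa9 and 112-fold for Hoxa11 in fibroblasts and 91.9-fold and 95.8-fold in iOB. Hoxa13, the gene of the hand, foot and genital tubercle, was at 10.3, 7.36 and 6.22 CPM in fibroblasts and 7.26, 5.96 and 7.36 in iOB with 0 counts in calvarial-OB, at least 84.1-fold and 71.6-fold higher. Calvarial-OB replicate 3 is the deepest library, and the bounds against 0 counts fall without it by construction, for example from 109 to 56.5 for Hoxa9 in fibroblasts.

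Central genes of clusters A to C, which pattern the thorax, were low or missing in calvarial-OB as well. Hoxd8, the central gene of cluster D, was higher there and is given below. Hoxb5 (4.52, 3.26 and 4.15 CPM in fibroblasts) and Hoxb8 (6.69, 5.95 and 6.30) had no calvarial-OB count, with bounds of at least 43.1-fold and 67.3-fold. Hoxb6 was at 8.86, 7.36 and 8.30 CPM in fibroblasts and had 1 calvarial-OB count, a ratio of 263 (95% exact interval 46.8 to 10400). Hoxb7 was at 7.35, 8.36 and 5.89 CPM and had 2, a ratio of 111 (30.4 to 924). Those counts came from replicate 1, and without it the genes were at least 64.9-fold and 54.9-fold higher in fibroblasts. Hoxc6 (3.30, 1.98 and 1.49 CPM) had 1 count in calvarial-OB, in replicate 3, a ratio of 71.6 (12.4 to 2870) or at least 12.3 without it. Hoxa5 and Hoxa7 kept counts in each calvarial-OB library: Hoxa5, a gene of the neck and lung, fell from 3.96, 3.68 and 2.07 CPM to 0.363, 0.490 and 0.456, by edgeR -2.83 ± 0.37 on the log2 scale (SE; adjusted p = 4.85e-05). Hoxa7 fell from 1.23, 1.13 and 2.16 CPM to 0.242, 0.123 and 0.130 (log2 fold change -3.18 ± 0.49).

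Anterior genes of clusters A and B differed less than the posterior ones, and the 2 clusters parted here. In cluster C, the anterior gene Hoxc4 had 16, 3 and 9 counts in fibroblasts and 0 in each calvarial-OB library, at least 9.98-fold higher in fibroblasts. Hoxb2, a hindbrain gene, was at 4.33, 5.10 and 3.98 CPM in fibroblasts and 1.09, 1.10 and 1.89 in calvarial-OB; edgeR gave -1.63 ± 0.27 on the log2 scale (SE; adjusted p = 2.65e-04). Hoxb3 fell by 3.00 ± 0.26 (log2, SE) from 15.4, 10.3 and 10.04 CPM to 1.09, 1.35 and 1.82. Hoxb4, known as a regulator of blood stem cells, was at 5.84, 2.97 and 4.15 CPM against 1.21, 1.23 and 2.6 (log2 fold change -1.29 ± 0.37, edgeR adjusted p = 0.0112), and this call was lost without fibroblast replicate 1 (0.055). Hoxa2 and Hoxa3, which pattern the hindbrain and the pharyngeal arches, were not called, with log2 differences of 1.14 ± 0.48 and -0.01 ± 0.37. Hoxa3 was at 1.51, 1.70 and 1.08 CPM in fibroblasts, 1.06, 0.917 and 1.96 in iOB and 1.09, 1.35 and 1.63 in calvarial-OB, so its groups overlapped. The RefSeq span of Hoxa3 overlaps those of Hoxa4 to Hoxa6, and that of Hoxb3 overlaps Hoxb4. How the counting assigned reads in such overlaps is not given, so these genes may not be separate measurements.

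Cluster D held the members that were higher in calvarial-OB. Hoxd8 was at 0.942, 1.42 and 1.16 CPM in fibroblasts, 2.57, 1.72 and 3.11 in iOB and 2.79, 3.43 and 5.47 in calvarial-OB, a log2 fold change of 1.78 ± 0.35 in calvarial-OB against fibroblasts (SE; edgeR adjusted p = 0.00105). Hoxd4 and Hoxd3, genes of the neck vertebrae, did not pass the filter on low counts. Hoxd4 had 1, 2 and 2 counts in fibroblasts and 7, 7 and 23 in calvarial-OB, with 1, 3 and 1 in iOB. Hoxd3 had 1 count over the 3 fibroblast libraries, 4 over the iOB libraries and 17 over the calvarial-OB libraries, a ratio of calvarial-OB to fibroblasts of 15.9 (95% exact interval 2.49 to 665). Their calvarial-OB libraries lay above all fibroblast libraries, and fitted without the filter Hoxd4 had 2.62 ± 0.60 on the log2 scale (edgeR adjusted p = 0.00227, DESeq2 0.0174) and Hoxd3 3.54 ± 1.08 (edgeR 0.0146, DESeq2 0.0358). Hoxd3 and Hoxd4 overlap in RefSeq, so they may not be separate measurements.

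At the other end of cluster D, counts were few in every group. Hoxd10 had 7 counts in fibroblasts, 3 in iOB and 0 in calvarial-OB, Hoxd11 had 2, 1 and 0, and Hoxd13 had 8, 2 and 0. Hoxd9 had 14, 11 and 21 counts. At this depth no difference could be resolved for Hoxd11, and Hoxd10, Hoxd11 and Hoxd13, which act in limbs and genitalia, had at most 8 counts over the tail fibroblast libraries. The other members of low count in clusters A and C were Hoxa4 with 10, 13 and 12 counts, Hoxa6 with 27, 25 and 0, Hoxc4 with 28, 38 and 0, Hoxc5 with 37, 13 and 1, and Hoxc8 with 38, 23 and 0, in fibroblasts, iOB and calvarial-OB. Of these, Hoxc4 and Hoxc8 were tested and are among the members called lower in calvarial-OB than in fibroblasts. Both passed the filter on low counts through fibroblasts and iOB, so bounds are given in place of p-values. They were at least 9.98-fold and 13.5-fold higher in fibroblasts.

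**Figure D3:**
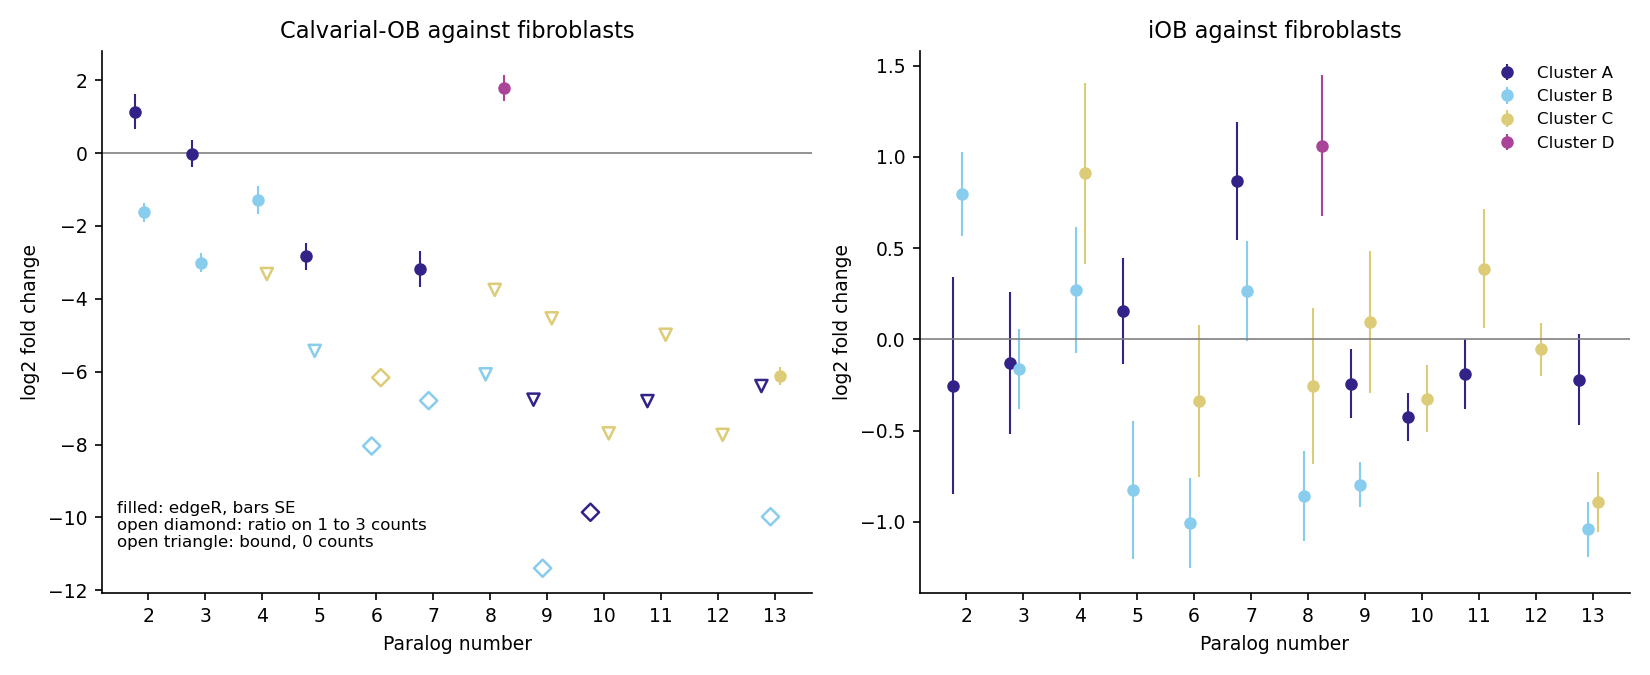
Log2 fold change against paralog number for tested members in calvarial-OB (left) and iOB (right) against fibroblasts; filled points are edgeR estimates with SE bars, open diamonds are ratios from 1 to 3 calvarial-OB counts, and open triangles are bounds from 0 counts, the true value lying at or below them. The vertical scales differ: changes in iOB stay within about 1 log2 unit, while most calvarial-OB values lie below -2.

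Promoters of 4 members are printed. Hoxa13 and Hoxa10 were read in fibroblasts and iOB and not, or by 1 count, in calvarial-OB, while Hoxa2 and Hoxd8 had their highest means in calvarial-OB. Libraries overlapped for both: Hoxa2 was at 1.51 CPM in fibroblast replicate 1 and 1.45 in calvarial-OB replicate 1. Hoxd8 was at 3.11 CPM in iOB replicate 3 and 2.79 in calvarial-OB replicate 1. Each is the 300 bases from 250 before to 50 after the RefSeq start (GRCm38.p6), written 5' to 3' on the strand of the gene, with CpG dinucleotides in capitals. CpG-rich promoters are typical of genes held silent by Polycomb proteins, which keep Hox genes off outside their domains. The Hoxa13 promoter lies at chr6:52260831-52261130 and the printed Hoxa10 promoter, the upstream one of 2 in RefSeq, at chr6:52240805-52241104, both on the minus strand. The Hoxa2 promoter lies at chr6:52164782-52165081 on the minus strand, and that of Hoxd8 at chr2:74704365-74704664 on the plus strand.
Hoxa13: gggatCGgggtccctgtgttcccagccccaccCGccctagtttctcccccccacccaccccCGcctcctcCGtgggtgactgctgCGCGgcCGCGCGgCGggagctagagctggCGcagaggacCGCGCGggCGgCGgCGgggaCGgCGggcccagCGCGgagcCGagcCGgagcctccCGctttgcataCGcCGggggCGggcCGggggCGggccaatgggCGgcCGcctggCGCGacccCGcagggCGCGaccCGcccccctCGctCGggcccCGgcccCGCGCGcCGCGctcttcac
Hoxa10: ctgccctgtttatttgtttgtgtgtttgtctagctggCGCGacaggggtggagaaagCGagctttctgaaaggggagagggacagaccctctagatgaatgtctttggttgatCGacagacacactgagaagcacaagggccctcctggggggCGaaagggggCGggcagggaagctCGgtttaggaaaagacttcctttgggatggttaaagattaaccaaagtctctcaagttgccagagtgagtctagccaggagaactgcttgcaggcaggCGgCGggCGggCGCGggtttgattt
Hoxa2: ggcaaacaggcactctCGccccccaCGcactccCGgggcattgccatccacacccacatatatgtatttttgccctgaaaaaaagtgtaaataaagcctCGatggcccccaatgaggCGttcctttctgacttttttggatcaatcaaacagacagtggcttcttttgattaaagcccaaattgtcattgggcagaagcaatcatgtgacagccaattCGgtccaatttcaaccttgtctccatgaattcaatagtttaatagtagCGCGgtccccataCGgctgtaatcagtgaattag
Hoxd8: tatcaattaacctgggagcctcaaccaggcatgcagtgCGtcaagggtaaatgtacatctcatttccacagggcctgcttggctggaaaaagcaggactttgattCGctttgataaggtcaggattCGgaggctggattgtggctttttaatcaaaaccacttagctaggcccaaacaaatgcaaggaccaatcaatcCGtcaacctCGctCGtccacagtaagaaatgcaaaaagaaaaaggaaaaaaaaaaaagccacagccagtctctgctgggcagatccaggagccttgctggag
The Hoxa13 promoter holds 45 CpG and is 81.0% G and C, the printed Hoxa10 promoter holds 12 (54.3%), Hoxa2 holds 9 (45.7%) and Hoxd8 holds 6 (46.7%). The other Hoxa10 promoter, at chr6:52234890-52235189, holds 21 (57.3%). Members that are not printed do not all keep this order. Among those without a calvarial-OB count, Hoxa9 holds 4 CpG and Hoxc4 holds 9. Hoxb8 holds 13, Hoxa11 15, Hoxd10 22, Hoxa6 26 and Hoxd13 37, and the Hoxd11 promoters hold 4 and 25. Hoxd3 and Hoxd4, whose calvarial-OB libraries lay above all fibroblast libraries, hold 20 and 4. A link between CpG number and Hox level was not tested. RefSeq promoters were found for 19 of the 36 members (21 promoters), with a median of 15 CpG and a range of 4 to 45. Over all 32851 promoters of that length the median was 7, 94.6% held at least 1 CpG (CG reads the same on both strands) and 34.6% held 15 or more. These counts describe the sequences only; the deposited methylation windows are not analysed here.

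The second comparison set iOB beside the tail fibroblasts. These iOB libraries are not the sorted iOB GFP+ cells, and the part of unconverted fibroblasts in their Hox values was not tested. Against fibroblasts, 6 of the 36 members were lower in iOB (Hoxa10, Hoxb6, Hoxb8, Hoxb9, Hoxb13 and Hoxc13), 3 were higher (Hoxa7, Hoxb2 and Hoxd8), 18 were not called and 9 were not tested (edgeR, adjusted p below 0.05). Over all tested genes 20.6% were lower and 22.7% higher (43.3% in either direction). The member shares, 16.7% lower and 8.33% higher, are of all 36, so the 9 untested members count as not called. Among the 27 tested members the share called lower is near that background and the share called higher is below it. The median log2 fold change over all 36, fitted without the filter, was -0.15, against 0.01 over all genes. The iOB libraries lay below every fibroblast library for 8 members and above for 3, 30.6% in all, where 32.8% of tested genes lay below, 30.2% above and 63.0% in either direction.

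The members that fell lay in the central and posterior part of cluster B, with Hoxc13 and Hoxa10 beside them. Hoxb13 went from 58.7, 71.8 and 62.6 CPM to 34.3, 32.1 and 27.2 in iOB, which is -1.04 ± 0.15 on the log2 scale (SE; edgeR adjusted p = 1.69e-04). Hoxb9 went from 81.7, 89.9 and 84.5 CPM to 51.3, 46.7 and 49.6 (-0.80 ± 0.12, edgeR adjusted p = 2.64e-04). Hoxc13 went from 39.7, 33.0 and 28.1 CPM to 17.4, 16.6 and 20.4 (-0.89 ± 0.17, edgeR adjusted p = 0.00105). All iOB libraries lay below all fibroblast libraries for these 3 genes, and all remained far above calvarial-OB. Hoxb6, from 8.86, 7.36 and 8.30 CPM to 3.93, 3.90 and 4.42, changed by -1.01 ± 0.25 (edgeR adjusted p = 0.00587), and like Hoxb13, Hoxb9 and Hoxc13 it kept its call under each of the 14 alternative settings. Hoxb8 (2.72, 3.78 and 3.93 CPM in iOB; -0.86 ± 0.25, edgeR adjusted p = 0.0176) and Hoxa10 (-0.42 ± 0.13, 0.0226) lost theirs in 4 and 6 of them, with adjusted p up to 0.0705 and 0.0875.

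Most posterior genes of clusters A and C were not called. Hoxa13 was not called beside Hoxb13 and Hoxc13, with a log2 difference of -0.22 ± 0.25, and Hoxa9 (-0.24 ± 0.19) and Hoxc9 (0.09 ± 0.39) were not called beside Hoxb9; the differences between paralogs were not tested. Hoxc12 was at 19.6, 22.7 and 19.0 CPM in fibroblasts and 18, 20.2 and 20.6 in iOB, a difference of -0.05 ± 0.15 with overlapping groups. Hoxa11 differed by -0.19 ± 0.19, Hoxc10 by -0.32 ± 0.18 and Hoxc11 by 0.39 ± 0.33, none of them called. Hoxb7, at 9.68, 7.80 and 8.34 CPM in iOB, was not called (0.27 ± 0.27), although its neighbours Hoxb6 and Hoxb8 were lower. Hoxb5 was at 1.36, 3.56 and 1.64 CPM in iOB and missed the threshold (-0.82 ± 0.38, edgeR adjusted p = 0.105), but without iOB replicate 2 it passed (-1.42, 0.0199).

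The members that rose were anterior or central. Hoxb2 was at 7.41, 8.14 and 7.53 CPM in iOB, above all fibroblast libraries, 0.80 ± 0.23 higher on the log2 scale (SE; edgeR adjusted p = 0.0152), and the call was lost without fibroblast replicate 3 (0.0558) or iOB replicate 2 (0.0616). Hoxa7 was at 2.87, 2.98 and 2.62 CPM in iOB (0.87 ± 0.32, edgeR adjusted p = 0.0469) and Hoxd8 rose by 1.06 ± 0.39 (0.0426). These 2 calls were lost in 9 and 6 of the 14 alternatives, with adjusted p up to 0.161 and 0.15. With DESeq2, 1 member was called higher (Hoxb2) and 4 lower. The remaining anterior members Hoxb3 (9.07, 11 and 11.9 CPM in iOB), Hoxb4 (6.20, 6.08 and 3.44) and Hoxa5 (3.78, 3.33 and 3.60) overlapped with fibroblasts and were not called.

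**Figure D4:**
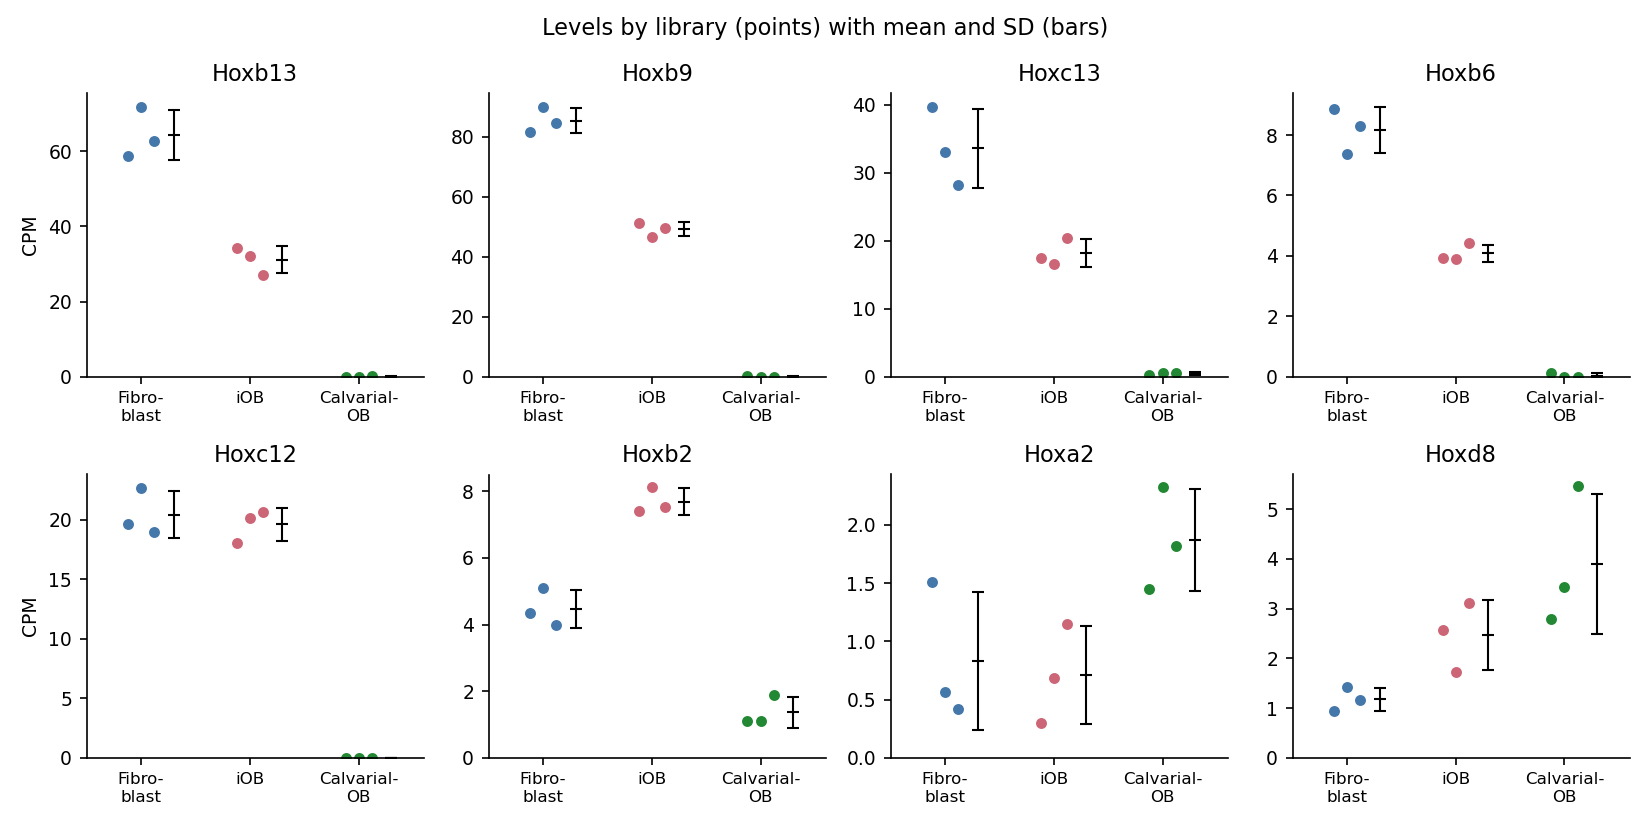
CPM of 8 Hox genes in each library (points) with the group mean and SD (n = 3) beside them, linear axes from 0. Hoxb13, Hoxb9, Hoxc13 and Hoxb6 stand lower in iOB than in fibroblasts and near 0 in calvarial-OB. Hoxc12 is level in fibroblasts and iOB, and Hoxb2 is highest in iOB. Hoxa2 and Hoxd8 have their highest means in calvarial-OB, where Hoxa2 overlaps with fibroblasts and Hoxd8 with iOB.

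The third comparison set iOB beside calvarial-OB, the 2 kinds of osteoblast. Of the 36 members 23 were higher in iOB and 1 was lower, 3 were not called and 9 were not tested (edgeR). Over all tested genes 24.7% were higher and 24.1% lower, 48.8% in all. In calvarial-OB 15 members had 0 counts and 7 had 1 to 3. Members tested mostly passed the filter through the groups in which they are high, so the count called higher is not read against these shares. The median log2 fold change over all 36 was 5.30 without the filter, and 4.27 over the 33 members that allow a bound or ratio, against -0.02 over all genes. The iOB libraries lay above every calvarial-OB library for 27 members and below for 3, where 28.1% of tested genes lay above, 27.3% below and 55.5% in either direction. This comparison uses the same iOB and calvarial-OB libraries as the others, so its counts are not separate evidence.

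The member called lower in iOB was Hoxa2, the gene that patterns the second pharyngeal arch; it had 99 counts in all and is given here because it was singled out by this call. Hoxa2 had 16, 4 and 5 counts in fibroblasts, 2, 6 and 7 in iOB and 12, 19 and 28 in calvarial-OB, with a log2 fold change of -1.39 ± 0.53 in iOB against calvarial-OB (SE; edgeR adjusted p = 0.0473). The call was lost in 8 of the 14 alternatives, with adjusted p up to 0.163. Hoxa2 is the one call among tested members only. Fitted without the filter, Hoxa2 was not called (edgeR adjusted p = 0.0597) and Hoxd4 was lower in iOB. Hoxd4 then had -2.18 ± 0.61 on the log2 scale (edgeR adjusted p = 0.0111, DESeq2 0.057). Hoxd3 was not called in that fit (-1.43 ± 0.88, edgeR adjusted p = 0.221). In calvarial-OB against fibroblasts Hoxa2 was not called (1.14 ± 0.48, edgeR adjusted p = 0.0637), and it was called higher in 3 of the 14 alternatives. These were without fibroblast replicate 1, which holds most of the fibroblast counts (1.94, edgeR adjusted p = 0.00978), without calvarial-OB replicate 1 (1.25, 0.0478) and with upper-quartile scaling (1.22, 0.0488). Over all settings the log2 fold change was 0.76 to 1.94, with adjusted p up to 0.234. Among the anterior genes Hoxb2 was higher in iOB by 2.42 ± 0.26, Hoxb3 by 2.84 ± 0.27 and Hoxb4 by 1.56 ± 0.38, while Hoxa3 (-0.12 ± 0.38) and Hoxd8 (-0.72 ± 0.33) were not called. Hoxa5 and Hoxa7 were higher in iOB by 2.98 ± 0.38 and 4.05 ± 0.46.

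The authors' deposited tables give the same genes in iOB and in iOB GFP+, the cells in which the osteoblast reporter is on, each against fibroblasts. The tables share their fibroblast group, so the values are set side by side and not tested against each other, and the iOB GFP+ libraries themselves are not analysed here. In the authors' deposited table for iOB, 1 member was higher (Hoxb2) and 6 were lower, the same 6 as above, with 28 not called and 1 without an adjusted p, where 19.9% of all genes were higher and 15.0% lower. In the authors' deposited table for iOB GFP+, 10 of 36 members were higher (27.8%) and 6 lower (16.7%), with 19 not called and 1 without an adjusted p, against 23.7% higher and 21.7% lower over all genes. The median over the 36 was 0.49 in the authors' deposited table for iOB GFP+ and -0.12 in that for iOB, against 0.03 and 0.01 over all genes with an adjusted p.

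By paralog class the medians of the deposited iOB GFP+ values fell from anterior to posterior. In the authors' deposited table, 5 of 10 members of paralogs 1 to 4 were higher and 0 lower (median log2 fold change 1.05), 3 of 11 members of paralogs 5 to 8 were higher and 1 lower (median 0.66), and 2 of 15 members of paralogs 9 to 13 were higher and 5 lower (median -0.41). The shares higher were 50%, 27.3% and 13.3%, and the shares lower 0%, 9.09% and 33.3%. Over all genes of the authors' deposited table for iOB GFP+, 23.7% were higher and 21.7% lower. The share of paralogs 5 to 8 called higher is near that background, and the order of the classes was not tested. In the authors' deposited table for iOB the 3 medians were 0.28, -0.23 and -0.22. The deposited iOB values are shrunk towards 0, and this could not be checked for iOB GFP+. Sizes of fold changes may therefore not be on a like scale in iOB and iOB GFP+. The posterior genes that fell in iOB GFP+ were led by Hoxb13 (-2.16 ± 0.37, SE; deposited adjusted p = 3.2e-08) and Hoxc13 (-1.83 ± 0.33, 1.63e-07), against -1.01 ± 0.16 and -0.86 ± 0.20 in the authors' deposited table for iOB. Hoxb9 was lower by a like amount in both of the authors' deposited tables, -0.66 ± 0.12 in iOB GFP+ and -0.77 ± 0.13 in iOB. Hoxa9 (-0.75 ± 0.22), Hoxa10 (-0.61 ± 0.16) and Hoxb8 (-0.81 ± 0.31) were also lower in the authors' deposited table for iOB GFP+, whereas Hoxb6 (-0.55 ± 0.26, deposited adjusted p = 0.0749) was not called there.

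Among the genes that rose in the authors' deposited table for iOB GFP+, Hoxb2 had a log2 fold change of 1.92 ± 0.34 (deposited adjusted p = 1.13e-07), against 0.80 ± 0.29 in iOB. Hoxd9 (1.96 ± 0.55), Hoxd8 (1.78 ± 0.42) and Hoxa7 (1.57 ± 0.37) were also higher in the authors' deposited table, and the others called higher there included Hoxa4, Hoxb4, Hoxb7, Hoxc4 and Hoxc9, between 0.70 and 1.63. Hoxd9 and Hoxc9 are posterior by number and rose, while the paralogs Hoxa9 and Hoxb9 fell in the same table. The 12 osteoblast markers were higher in 11 cases and not called in 1 in the authors' deposited table for iOB GFP+, and of the 13 macrophage markers 1 was higher and 12 had no adjusted p, with log2 fold changes of 2.94 to 4.84. Hoxb1, absent from the count table, had a row in the authors' deposited table for iOB GFP+ but no adjusted p.

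**Figure D5:**
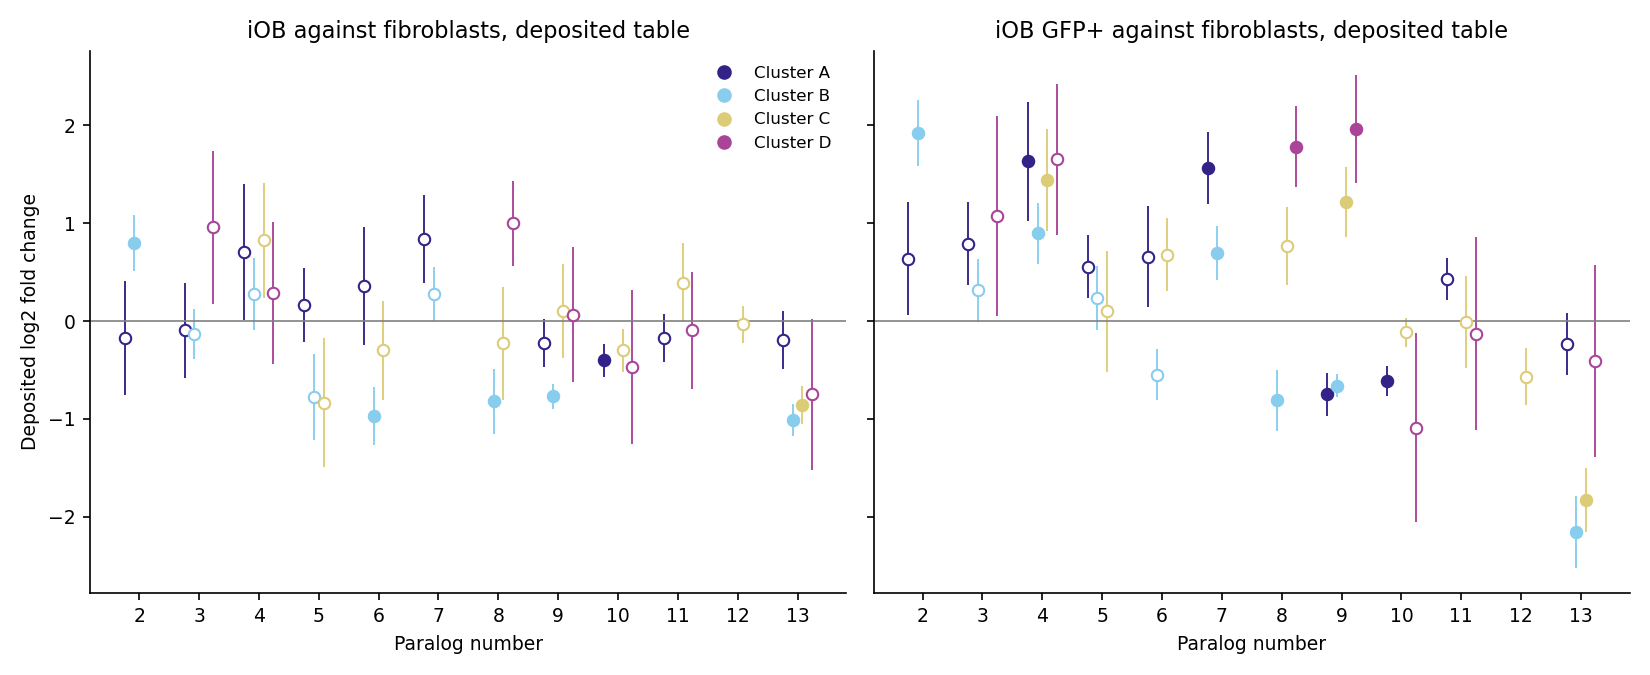
Log2 fold changes against fibroblasts (points, bars SE) from the authors' deposited tables for iOB (left) and iOB GFP+ (right), by paralog number and cluster; filled points have a deposited adjusted p below 0.05. In iOB GFP+ most points at low numbers lie above 0 and Hoxb13 and Hoxc13 lie near -2.

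Most non-coding genes in and beside the clusters had no count in calvarial-OB, but not all. Of 24 listed, 11 had counts and 4 passed the filter on low counts: Hotair, which lies between Hoxc12 and Hoxc11, Gm53 and Mir196a-1, both between Hoxb13 and Hoxb9, and Hoxa11os, the antisense partner of Hoxa11. Hotair had 82, 33 and 54 counts in fibroblasts and 19, 24 and 27 in iOB, and Gm53 had 180, 97 and 191 and 58, 109 and 84. None of the 4 was called between iOB and fibroblasts by edgeR, where Hotair alone had an unadjusted p below 0.05 (0.0381, adjusted p = 0.0795). All 4 had 0 counts in each calvarial-OB library, and since they passed the filter through the other groups, no test against calvarial-OB is given. Hoxd3os1, between Hoxd8 and Hoxd4, ran the other way, with 2, 0 and 2 counts in calvarial-OB and 0 in every other library. Its RefSeq span overlaps that of Hoxd3, so these counts may not be a separate measurement. Without a strand setting, reads of Hoxa11os (125, 85 and 183 counts in fibroblasts, 68, 79 and 73 in iOB) cannot be told from those of Hoxa11. In the authors' deposited table for iOB GFP+, Hotair was lower (-1.20 ± 0.45, deposited adjusted p = 0.0182).

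The microRNA genes of the clusters are shown by their mature sequences, since miR-196 is known to cleave the Hoxb8 transcript and is encoded beside the posterior genes described above. Sequences are from RefSeq (GRCm38.p6), 5' to 3', with the seed, bases 2 to 8, in capitals.
mmu-miR-196a-5p: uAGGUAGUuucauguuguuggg
mmu-miR-196b-5p: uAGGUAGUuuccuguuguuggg
mmu-miR-10a-5p: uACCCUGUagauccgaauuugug
The miR-196 sequences share the seed AGGUAGU and differ outside it. Mir196a-1 had 27, 7 and 14 counts in fibroblasts, 9, 8 and 7 in iOB and 0 in calvarial-OB, and Mir196b and Mir10a had at most 3 counts in any library. Poly-A selected libraries read precursor transcripts and not the mature microRNAs, so these counts do not measure them.

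Hox proteins bind DNA with Pbx, Meis and Pknox partners, and these genes changed in both directions. Of 9 tested cofactors, 3 were higher and 2 lower in iOB than in fibroblasts (55.6% called, against 43.3% of all tested genes), and 4 higher and 3 lower in calvarial-OB (77.8% against 55.8%). Pbx3 rose from 10.5, 10.8 and 11.5 CPM in fibroblasts to 31.9, 26.3 and 27.7 in iOB and 23.0, 19.9 and 21.2 in calvarial-OB, with log2 fold changes of 1.39 ± 0.13 and 0.96 ± 0.13 (SE; edgeR adjusted p = 6.17e-06 and 6.46e-05). Pknox2 was higher in iOB (0.81 ± 0.21) and lower in calvarial-OB (-0.68 ± 0.22), and Pknox1 was lower in iOB (-0.50 ± 0.14). Meis1 rose by 1.05 ± 0.16 in calvarial-OB, and Pbxip1, which binds Pbx proteins, fell there by 1.01 ± 0.11.

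Genes that set or keep Hox domains were counted next, beside the shares over all tested genes, 22.7% higher and 20.6% lower in iOB than in fibroblasts and 28.4% higher and 27.4% lower in calvarial-OB. Of 26 Polycomb genes, which silence Hox clusters, 2 were higher (7.69%) and 7 lower (26.9%) in iOB than in fibroblasts and 5 higher (19.2%) and 6 lower (23.1%) in calvarial-OB; Pcgf3 had the smallest p in both, with log2 fold changes of -0.84 ± 0.11 and -1.68 ± 0.11. Of 14 Trithorax and histone demethylase genes, 0 were higher and 6 lower (42.9%) in iOB, and 2 were higher (14.3%) and 7 lower (50%) in calvarial-OB. Kmt2a, which maintains active Hox genes, fell by 0.65 ± 0.12 in iOB and by 0.77 ± 0.12 in calvarial-OB. Of 13 upstream signalling genes 3 were higher (23.1%) and 2 lower (15.4%) in iOB. Among the higher ones was Cyp26a1, which degrades retinoic acid, an inducer of anterior Hox genes. Cyp26a1 had 0, 0 and 2 counts in fibroblasts, 105, 107 and 111 in iOB and 0, 1 and 0 in calvarial-OB. It passed the filter on low counts through iOB alone, so its counts are given in place of a p-value.

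Of 11 tested genes that flank the clusters, 1 was higher and 3 lower in iOB than in fibroblasts and 2 higher and 4 lower in calvarial-OB, with medians of 0.01 and -0.06 on the log2 scale. The shares called, 36.4% and 54.5%, are below and near the 43.3% and 55.8% over all tested genes. Cbx5, beside cluster C, fell by 0.64 ± 0.12 in iOB and by 0.56 ± 0.12 in calvarial-OB. Of 15 homeobox and other genes of the head mesenchyme, 9 were higher (60%) and 2 lower (13.3%) in calvarial-OB than in fibroblasts, against 28.4% and 27.4% of all tested genes, and 2 higher (13.3%) and 3 lower (20%) in iOB, against 22.7% and 20.6%. Six2, a gene of head mesenchyme, had 292, 291 and 488 counts in calvarial-OB, 0, 0 and 1 in fibroblasts and 0 in each iOB library. Of 15 limb and tail genes, 7 were higher (46.7%) and 3 lower (20%) in calvarial-OB, and 6 higher (40%) and 2 lower (13.3%) in iOB, led by Tbx2 (3.24 ± 0.28 in iOB).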

How the data were processed

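RNA was poly-A selected, and the build is mm9 per the submitters' processing notes, which list R 3.2.2, DESeq2, STAR 2.4.2a and Bowtie2 but give no roles. The authors deposited raw counts per gene symbol for 9 libraries (17982 genes); how reads were counted, with which annotation and strand setting, is not given in the sources used here. The OB columns were read as calvarial-OB. Per the file headers, the authors' deposited result tables hold a base mean (normalized signal), a log2 fold change with its error, a test score and a p-value with its adjusted p-value. A DESeq2 refit with moderated fold changes differed from the deposited iOB values by a median of 0.000338, so these are shrunk towards 0; the iOB GFP+ values could not be checked in this way.

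From the counts, 1 edgeR 4.0.16 quasi-likelihood fit of the 9 libraries (R 4.3.3, TMM scaling, filterByExpr leaving 13438 genes, Benjamini-Hochberg over them, threshold 0.05) gave 3 comparisons; the biological coefficient of variation was 14.8%. SE is the fold change over the square root of F. Groups with 0 counts give bounds against 3 counts over the group, and groups with 1 to 3 give ratios with exact 95% intervals, on TMM-scaled sizes; intervals and bounds cover counting error only. Values per library are given for members with at least 100 counts in all and for those a result turns on; of other lists up to 4 genes with the smallest adjusted p are named. Some genes enter the counts and sums but are not reported by name here. Members and lists were chosen with earlier results of these data known. The fits were tested on simulated data. Alternatives were DESeq2 1.42.0, upper-quartile scaling, no filter, only the compared groups, a replicate block, and leaving out each library. Methylation windows are not used here, since they are in mm9 and the gene table in GRCm38.p6.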

Additional observations from a re-analysis of the deposited data

How the results depend on the processing

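Over the 14 alternatives 614 of 656 gene settings kept the call, and no called fold change turned sign. Of the 47 fold changes examined 11, none of them called, changed sign in 22 settings. Leaving out 1 library at a time gave these log2 ranges in iOB against fibroblasts: Hoxa2 -0.69 to 0.5452, Hoxa3 -0.5098 to 0.0949, Hoxa5 -0.0698 to 0.3431, Hoxa13 -0.3425 to 0.0116, Hoxb3 -0.2458 to 0.0632, Hoxc6 -0.744 to 0.0624, Hoxc8 -0.4412 to 0.0864, Hoxc9 -0.0782 to 0.5591 and Hoxc12 -0.092 to 0.0554. Hoxa3 ranged from -0.1982 to 0.1092 in calvarial-OB against fibroblasts (0.0708 with upper-quartile scaling) and from -0.4868 to 0.1172 in iOB against calvarial-OB. Counts of members called moved as follows. With DESeq2, 5 members were called in iOB against fibroblasts in place of 9, with 1 higher in place of 3. In calvarial-OB against fibroblasts, members called higher went from 1 to 3 with DESeq2, 2 with upper-quartile scaling and 3 without the filter, where Hoxd3 and Hoxd4 are tested. In iOB against calvarial-OB, the 1 member called lower (Hoxa2) was lost with DESeq2 and with a replicate block, leaving 0.

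Leaving out 1 library at a time gave 5 to 9 members called in iOB against fibroblasts, 5 without fibroblast replicate 1 or 3, and 1 to 3 called higher, 1 without any single fibroblast or iOB library. It gave 1 to 2 called higher in calvarial-OB against fibroblasts, 2 without fibroblast replicate 1 or calvarial-OB replicate 1, and 0 to 2 called lower in iOB against calvarial-OB. That count was 0 without fibroblast replicate 2, iOB replicate 1 or 2, or calvarial-OB replicate 2 or 3, and 2 without calvarial-OB replicate 1, where Hoxd8 (adjusted p = 0.0351, edgeR) joined Hoxa2. The causes were not tested. Members called lower in calvarial-OB numbered 21 to 27 and members called higher in iOB than calvarial-OB 21 to 25 over all settings.

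Deviations from group means of 9 same-numbered pairs of libraries correlated between -0.165 and 0.159, with 2 above 0.1. With 3 libraries per group this cannot show whether same-numbered libraries share an animal or a batch. Under the replicate block Hoxa7 in iOB against fibroblasts (adjusted p = 0.0611, edgeR) and Hoxa2 in iOB against calvarial-OB (0.0681) were the calls lost. Upper-quartile scaling moved the median of all genes to 0.10 in calvarial-OB against fibroblasts and -0.11 in iOB against calvarial-OB, and split all calls in the former 4397 higher and 3166 lower, against 3817 and 3677. Depth limits members of under 100 counts, above all Hoxd10, Hoxd11 and Hoxd13.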
